A study of Ipomoea batatas with 12 samples.

Results

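The comparison described here is the interaction between genotype and tissue in storage roots of sweetpotato (Ipomoea batatas): the difference between a natural mutant and its wild type in root skin, minus the same difference in root flesh. All 12 libraries of the study entered it. They form 4 groups of 3, namely flesh of the wild-type line M1-125 (WT), flesh of the natural mutant MT, skin of WT and skin of MT. Both lines grew on an experimental farm under conditions labelled normal, roots were taken 120 days after planting, and the labels name no transgene or applied agent. The study asked about regulators of skin colour, but the labels give neither the mutated locus nor the colour of either line. The 3 replicates of a group are called biological, without saying whether they were separate plants, so p-values measure the spread between these libraries.

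The skin of a storage root is its periderm, a thin layer of corky, suberised cells that seals the root, and in coloured cultivars the anthocyanins of the outer layers give the root its surface colour. The flesh is storage parenchyma, which fills with starch and storage protein. A mutant can differ from its wild type by the same factor in both tissues, in which case the interaction is 0, or by unequal factors, so that the tissues become more alike or less alike in the mutant. The interaction equals the skin-minus-flesh difference in MT minus that in WT, and it was read both ways. The count table pairs no gene identifier with a name, so identifiers are given as deposited, and the tissues could not be checked against known markers.

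Total counts ran from 8.51 to 15.1 M (1e+06 counts) in the skin libraries and from 15.9 to 20.3 M in the flesh libraries. Levels are given as CPM, the count per 1e+06 counts of a library after TMM scaling. Between the 3 replicates of a group, the SD of log2 CPM had a median over genes of 0.256 (WT) and 0.259 (MT) in flesh. Skin varied more, at 0.358 for WT and 0.425 for MT. The tests for skin therefore rest on shallower and more variable libraries than those for flesh. The fit used a single estimate of spread per gene, shared by all 4 groups. Skin p-values and SEs thus do not carry the larger spread of skin in full, and those for flesh carry part of it.

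For a minority of genes MT differed from WT by unequal amounts in skin and flesh. Of 80351 tested genes, 3653 passed the interaction test, 4.55% of all tested (quasi-likelihood test of edgeR, adjusted by Benjamini-Hochberg, at 0.05). In 2476 of them (3.08% of tested genes) MT stood lower relative to WT in skin than in flesh, and in 1177 (1.46%) it stood higher. The lower genes also had larger interactions, with a median absolute log2 value of 1.53 against 0.90 for the higher genes and 0.52 for all tested genes. Their expression was lower too, with a median log2 CPM of 3.78 against 4.57, and interactions that passed were larger at low levels. The part of expression level in this gap was not tested. An interaction of at least 2-fold was found in 2259 of the 3653 genes and one of at least 4-fold in 1190. Among all 80351 tested genes the numbers were 22135 and 8302, so most estimates of these sizes did not pass. In bulk tissue, fewer cells of a type and less RNA per cell cannot be told apart, and this holds for every difference given here.

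The direction of the interaction recurred in libraries left out of the test that selected the genes. The 4 libraries of each replicate number were set aside in turn, and genes were tested on the other 8. The genes also had to pass the filter on low counts over all 12 libraries, whose joint scaling gave the values set aside. Replicates are not known to be separate plants, so the recurrence covers these libraries alone. With replicate 1 set aside 1618 genes passed, and 96% of them had the same direction in the 4 libraries set aside, where 59.2% of all tested genes did. The shares were 95.6% of 1421 genes with replicate 2 set aside and 96.1% of 1374 genes with replicate 3 set aside. The median size in the libraries set aside was 1.19, 1.30 and 1.34 on the log2 scale, below the 1.62, 1.84 and 1.77 of the libraries that had selected the genes.

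Neither tissue was the main site of departure by number of genes. The absolute genotype difference was larger in skin for 1835 of the 3653 genes and larger in flesh for 1818, that is, in skin for 50.2%. Among all tested genes the share was 58.3%. The share moved to either side of an even balance when single libraries were left out, from 44.7% without WT flesh replicate 3 to 53.8% without MT skin replicate 3. The genes divided by the tissue in which the genotype test itself passed, a test that 6.85% of all genes passed in skin and 4.96% in flesh. It passed in skin alone for 1420 interaction genes and in flesh alone for 1185, an order that turned with limma-voom (930 and 1064) and without WT skin replicate 2 (1023 and 1032). It passed in both tissues in opposite directions for 327, in both in the same direction for 326, and in neither for 395. Flesh alone and skin alone name the tissue whose test passed. A test that did not pass does not show the other tissue to be unchanged. Both genotype tests used the shared estimate of spread, so these counts do not allow in full for the more variable skin.

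**Figure D1:**
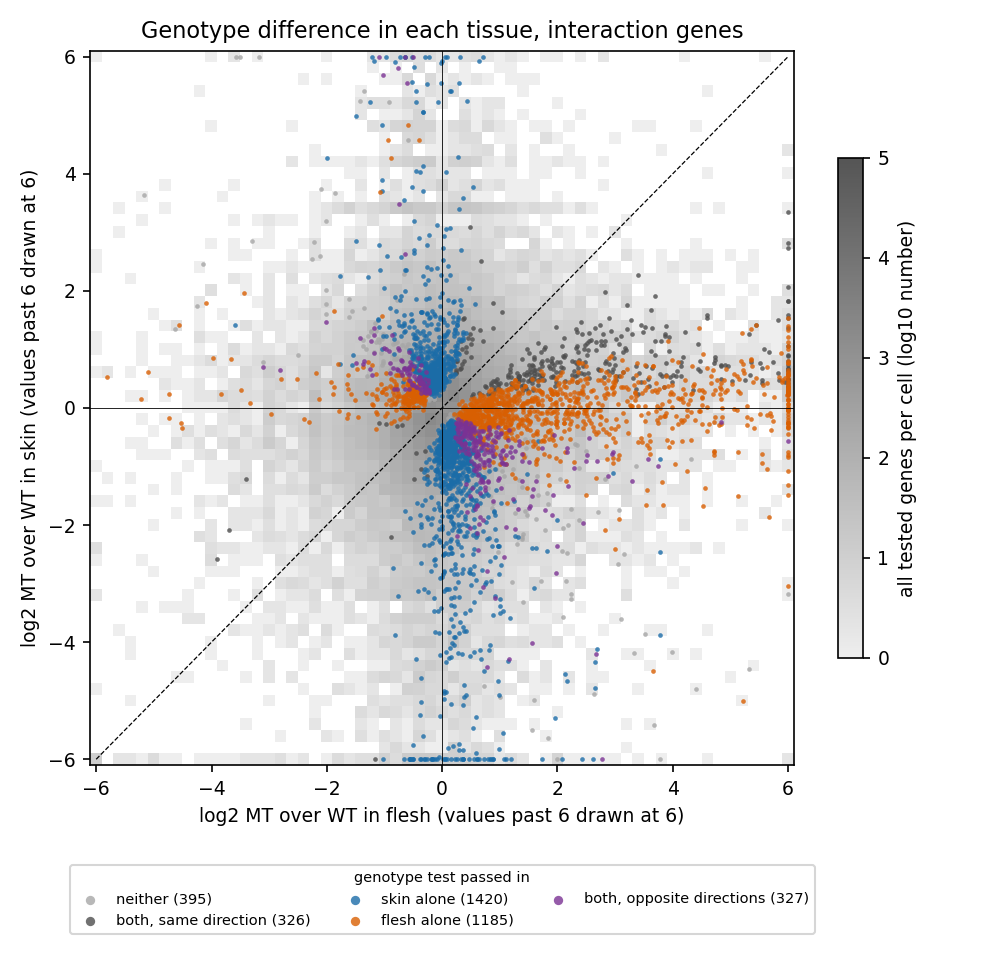
Log2 MT over WT in flesh (horizontal axis) and in skin (vertical axis) for the 3653 interaction genes, each a point coloured by the tissue in which the genotype test passed, over a grey density of all 80351 tested genes; the dashed line marks equal differences. The flesh-alone genes lie mostly to the right along the horizontal axis (958 of 1185 raised in MT flesh), and the skin-alone genes lie above and below the centre (605 raised and 815 lowered).

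Where the mutant departed in flesh alone, it mostly gained transcripts. Of the 1185 genes, 958 were higher in MT flesh (80.8%) and 227 lower. The rises were also larger, with a median log2 difference of 1.71 against a fall of 0.61 in size, and 670 rises but 57 falls reached 2-fold. In skin the same 1185 genes had a median absolute difference of 0.24, against 0.40 for all tested genes. Of the 1185, 546 were at least 2-fold apart in flesh and within 0.5 on the log2 scale in skin. The class requires a passed flesh test and an unpassed skin test, so this contrast is in part built in. The predominance of rises depended in part on scaling: scaled by library totals without TMM, the split was 806 raised to 439 lowered.

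Most of the raised genes stood higher in skin than in flesh in WT, 837 of the 958 (87.4%), where 49.4% of all tested genes did. They had a median log2 skin-minus-flesh difference of 2.96 in WT and 1.03 in MT. By contrast, the 227 genes lowered in MT flesh were divided between both tissues in WT, 128 higher in skin and 99 higher in flesh. A low WT flesh level both makes a gene raised in MT flesh and places skin above flesh in WT. The excess of 87.4% over 49.4% is thus in part built in. These classes share libraries with the interaction and are given as a description.

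Among raised genes with a mean of at least 1 CPM in every group, Ibat.Brg_v3.12CG012560 had the largest interaction no role is annotated for it in the sources used here, nor for the other identifiers. It stood at 1.11, 2.17 and 1.5 CPM in the 3 WT flesh libraries and at 106, 105 and 106 CPM in MT flesh. In skin it stood at 356, 319 and 340 CPM in WT and at 299, 276 and 274 CPM in MT. The flesh groups are far apart, and both lie below all skin libraries. The log2 genotype difference was 6.02 (SE 0.14, adjusted p = 7.4e-13) in flesh and -0.26 (SE 0.09, adjusted p = 0.13) in skin, which gives an interaction of -6.28 (SE 0.17, adjusted p = 1.3e-11, edgeR). The skin excess was 209-fold in WT and 2.68-fold in MT.

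Ibat.Brg_v3.07AG011200 showed a similar course with more spread. It had 3.14, 1.3 and 1.12 CPM in WT flesh and 173, 160 and 158 CPM in MT flesh. Its skin values were 250, 390 and 337 CPM in WT and 224, 332 and 672 CPM in MT, so the skin groups overlap and MT skin replicate 3 stands highest of all. The interaction was -6.16 (SE 0.54, adjusted p = 5.4e-06, edgeR), and it missed the threshold with limma-voom (adjusted p = 0.091).

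Genes lowered in MT flesh alone changed less. Ibat.Brg_v3.12FG024710 fell from 4.91, 5.89 and 5.76 CPM in WT flesh to 1.56, 1.13 and 2.66 CPM in MT flesh. In skin it had 14, 12.9 and 17.3 CPM in WT and 22.5, 24.7 and 18 CPM in MT. The MT skin libraries are all above the WT ones, though the genotype test in skin did not pass (adjusted p = 0.19, edgeR). Its interaction was 2.20 (SE 0.36, adjusted p = 0.0019, edgeR), and the skin excess was 2.66-fold in WT and 12.3-fold in MT.

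The next lowered gene by size of interaction, Ibat.Brg_v3.06EG023670, had 13, 36.6 and 29.7 CPM in WT flesh against 11.2, 10.3 and 11 CPM in MT flesh. WT flesh replicate 1 thus lies close to the MT libraries. In skin it had 17.7, 20.2 and 15.3 CPM in WT and 43.5, 21.5 and 26.6 CPM in MT. The MT skin libraries are again all above the WT ones, though the test there did not pass (log2 0.78, SE 0.32, adjusted p = 0.17, edgeR). Its interaction was 2.07 (SE 0.44, adjusted p = 0.015 with edgeR and 0.093 with limma-voom).

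Where the mutant departed in skin alone, losses outnumbered gains and were larger. Of the 1420 genes, 815 were lower in MT skin and 605 higher. The median fall was 1.10 in size on the log2 scale and the median rise 0.75, with 445 falls and 211 rises of at least 2-fold. The median absolute difference of the 1420 genes was 0.92 in skin and 0.21 in flesh, against 0.40 and 0.30 for all tested genes. This contrast too is in part built in by the class. Of the lowered genes 414 stood higher in WT skin and 401 higher in WT flesh, and of the raised genes 251 and 354. The predominance of losses depended on the method. With DESeq2 the skin-alone split was nearly even, 1235 lowered to 1158 raised, while scaling by library totals gave 797 lowered to 593 raised.

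Ibat.Brg_v3.14CG000790 had the largest interaction among genes lowered in skin alone with at least 1 CPM in every group. It stood at 19.7, 18.2 and 19.2 CPM in WT skin and at 1.5, 0.453 and 1.06 CPM in MT skin, on 14, 4 and 8 counts. Flesh held 9.46, 13.3 and 10.9 CPM in WT and 16.8, 13.8 and 16.5 CPM in MT. MT skin is therefore the single low group, and skin passed from the higher to the lower tissue. The fall in skin was 18.7-fold (log2 -4.23, SE 0.28) and the interaction -4.71 (SE 0.35, adjusted p = 1.2e-06, edgeR).

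Ibat.Brg_v3.04EG029190 fell to a like extent from a higher level. It had 59.9, 68.6 and 73 CPM in WT skin and 5.14, 2.72 and 2.91 CPM in MT skin, 18.5-fold lower. In flesh it had 8.14, 9.97 and 8.29 CPM in WT and 10.3, 11 and 12.1 CPM in MT. WT skin was the highest group and MT skin the lowest, with an interaction of -4.54 (SE 0.26, adjusted p = 6.1e-08, edgeR).

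Among genes raised in skin alone, Ibat.Brg_v3.04AG000420 had 0.863, 1.54 and 1.16 CPM in WT skin and 11.5, 8.38 and 2.91 CPM in MT skin. Flesh stood at 1.77, 1.86 and 1.64 CPM in WT and 1.66, 0.922 and 1.18 CPM in MT. MT skin is the single high group, with wide spread and few reads: 8 to 21 counts in WT skin. The interaction was 3.13 (SE 0.64, adjusted p = 0.011, edgeR). It did not pass with limma-voom (adjusted p = 0.061) or with all libraries thinned to equal depth (adjusted p = 0.062, edgeR).

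Ibat.Brg_v3.05AG023240 rose from 1.51, 0.736 and 0.927 CPM in WT skin to 6.75, 4.19 and 5.03 CPM in MT skin, 5.09-fold. Its flesh values were 3.84, 8.41 and 3.93 CPM in WT and 3.22, 3.59 and 3.73 CPM in MT. All MT skin libraries thus reached the range of WT flesh. The interaction was 2.97 (SE 0.54, adjusted p = 0.0045, edgeR).

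In 327 genes the mutant departed in both tissues and in opposite directions, and the commoner form was a fall in skin with a rise in flesh (228 genes against 99). The median absolute difference of the 327 was 0.66 in skin and 0.63 in flesh. The 326 genes that changed the same way were almost all raised, 312 in both tissues and 14 lowered in both. In the 312 raised genes the median rise was 2.35 in flesh and 0.72 in skin on the log2 scale, so that flesh moved further.

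Ibat.Brg_v3.12FG026930 had the largest interaction of the opposed genes under the same minimum. It had 98, 92.3 and 99.5 CPM in WT skin and 4.07, 2.83 and 6.88 CPM in MT skin. In flesh it had 26.9, 28 and 25.2 CPM in WT and 49, 42.4 and 45.2 CPM in MT. None of the 4 groups overlap, and the order of the tissues is exchanged between the lines. It fell 21.4-fold in skin and rose 1.71-fold in flesh, with an interaction of -5.19 (SE 0.24, adjusted p = 6.3e-09, edgeR).

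Ibat.Brg_v3.06EG010380 showed the exchange at closer to equal size. It stood at 52.8, 56.9 and 64.2 CPM in WT skin and at 9.75, 13.9 and 10.1 CPM in MT skin. In flesh the values were 14.1, 16.2 and 16 CPM in WT and 63, 55 and 67.6 CPM in MT. The ranges of MT flesh and WT skin thus overlapped. Skin fell 5.14-fold and flesh rose 4.01-fold, an interaction of -4.37 (SE 0.19, adjusted p = 3.5e-09, edgeR).

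The reverse form was a rise in skin with a fall in flesh. Ibat.Brg_v3.01DG013520 had 24.6, 23.5 and 29.7 CPM in WT skin, 66.5, 70.8 and 63.3 CPM in MT skin, 6.07, 7.19 and 6.98 CPM in WT flesh and 2.54, 3.28 and 3.02 CPM in MT flesh. No groups overlap, and the skin excess widened from 3.82-fold in WT to 22.6-fold in MT. Its interaction was 2.57 (SE 0.19, adjusted p = 8.1e-07, edgeR).

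Ibat.Brg_v3.13DG022780 widened from 12.8-fold to 68.7-fold. It had 29.1, 32.1 and 36.3 CPM in WT skin, 77.6, 81 and 73.7 CPM in MT skin, 2.43, 2.34 and 2.86 CPM in WT flesh and 0.675, 1.13 and 1.6 CPM in MT flesh. Again no groups overlap. Its interaction was 2.43 (SE 0.27, adjusted p = 6.3e-05, edgeR).

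**Figure D2:**
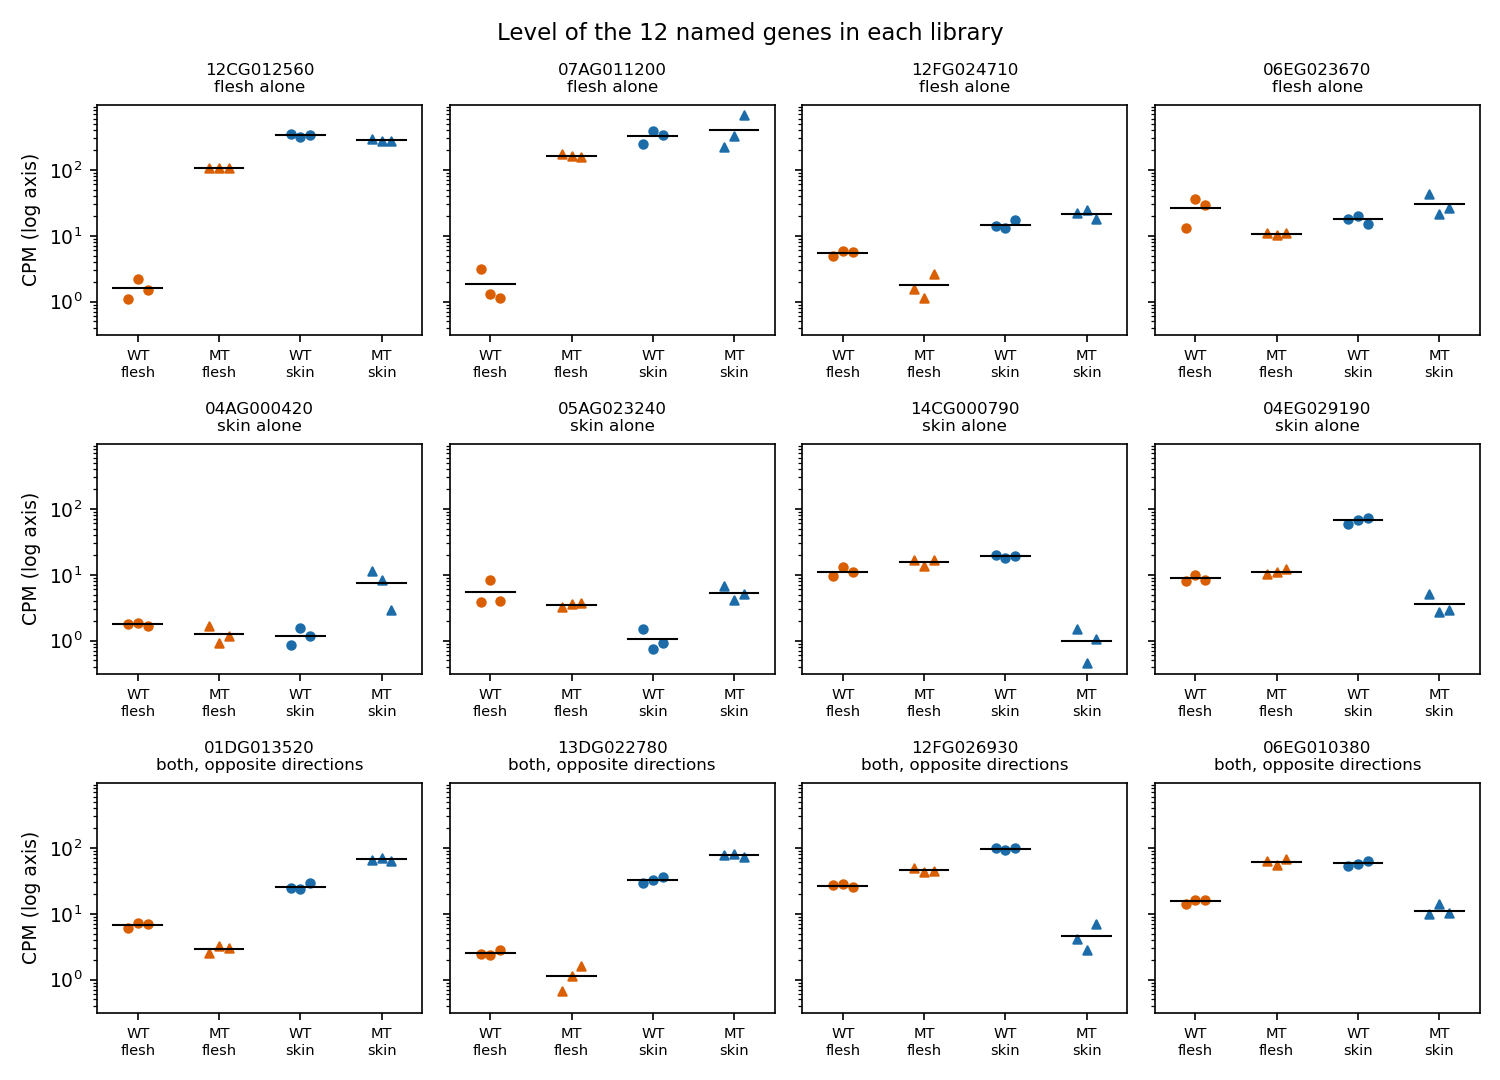
CPM (log axis) of the 12 named genes in the 12 libraries, with flesh in orange, skin in blue, WT as circles, MT as triangles and the mean of each group (n = 3) as a line. In 12CG012560 only the WT flesh group is low, at 1.59 CPM, while in 12FG026930 and 06EG010380 the order of skin and flesh is exchanged between the lines.

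Whether the tissues grew more alike or less alike in the mutant was read from the absolute skin-minus-flesh difference in each line, over genes for which skin and flesh kept their order. Over all tested genes the balance was close to even, with 33433 wider in MT (41.6%), 32773 narrower (40.8%) and 14145 with the order turned (17.6%). The median absolute difference was 0.99 on the log2 scale in WT and 1.02 in MT, and the skin-against-flesh test passed for 50.4% of genes in WT and 50.7% in MT. As a whole the tissues were thus as far apart in one line as in the other.

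Among the interaction genes 1524 were narrower in MT (41.7%, against 40.8% of all tested genes). A further 1188 were wider (32.5%, against 41.6%) and 941 turned (25.8%, against 17.6%). Narrower genes thus outnumbered wider ones, but their share was near that of all genes, while fewer were wider and more turned. By definition the narrower genes had the larger difference in WT: their median absolute log2 difference was 3.41 in WT and 1.72 in MT, against 1.52 and 0.92 for the narrower among all tested genes. The wider genes had medians of 1.14 and 2.44, against 0.87 and 1.48 for the wider among all tested genes. Of the 1524 narrower genes, 245 passed the tissue test in WT but not in MT, where 6776 of the 32773 narrower among all tested genes did. Of the 1188 wider genes, 251 passed it in MT but not in WT, where 7075 of the 33433 wider among all tested genes did. Neither share exceeded that of all tested genes. Of the 941 turned genes, 345 passed the tissue test in both lines with opposite signs, against 351 of the 14145 turned among all tested genes.

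Where tissue order is kept, the sign of the interaction fixes whether a gene narrows or widens, so the next counts are the higher and lower interactions arranged by tissue. Of those higher in skin in both lines, 1178 narrowed and 545 widened. Of those higher in flesh in both lines, 346 narrowed and 643 widened. Over all tested genes the wider share was 48.8% of those higher in skin and 52.1% of those higher in flesh. The share of interaction genes was 5.35% among the 32197 tested genes higher in skin in both lines and 2.91% among the 34009 higher in flesh. With library totals alone the numbers were 953 narrower and 528 wider for genes higher in skin, and 562 and 678 for genes higher in flesh. Of the turned genes, 655 went from higher in skin in WT to higher in flesh in MT, and 286 the other way.

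Arranged by the tissue in which the genotype test passed, these counts follow from the direction of the change and from the tissue that was higher in WT, and they add no separate evidence. Genes changed in flesh alone were narrower in 683 cases and wider in 249, and genes changed in skin alone were narrower in 367 cases and wider in 652. Of the 958 genes raised in flesh alone, 632 narrowed (66%), 205 turned and 121 widened (12.6%). In the 815 genes lowered in skin alone, 401 widened (49.2%), 251 turned and 163 narrowed. Genes raised in both tissues narrowed in 221 of 312 cases (70.8%), and those that passed the genotype test in neither tissue were divided almost evenly, 127 narrower and 134 wider.

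**Figure D3:**
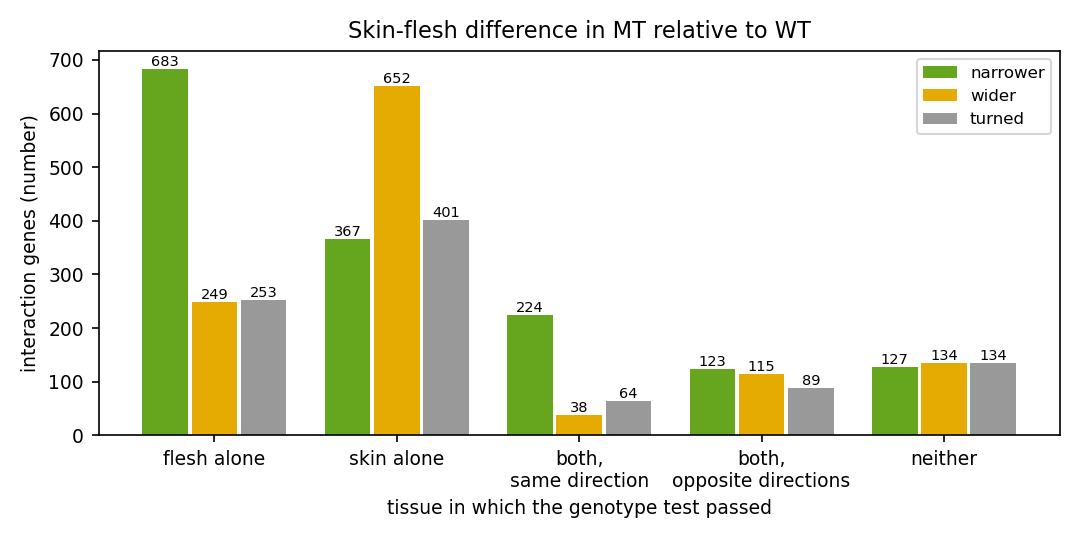
Number of interaction genes whose skin-flesh difference was narrower, wider or turned in MT relative to WT, by the tissue in which the genotype test passed. Narrower genes lead among those changed in flesh alone (683 against 249 wider), and wider genes lead among those changed in skin alone (652 against 367 narrower).

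By rank of the 4 group means, WT flesh was most often the lowest and MT skin most often the highest. The interaction genes were selected on these same 4 groups, so the ranks partly restate the selection and the excess of lower interactions. They are given as a description. WT flesh had the lowest mean in 1544 of the 3653 genes (42.3%), against 25.6% of all tested genes, and the highest in 480 (13.1%, against 25.6%). MT skin had the highest mean in 1221 genes (33.4%, against 25.8%) and the lowest in 921 (25.2%, against 27.6%). MT flesh was lowest in 16.9% and WT skin in 15.6%, where 21.4% and 25.3% of all tested genes were.

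Some genes were close to silent in a single group. Among interaction genes, 356 had at most 3 counts over the libraries of exactly 1 group. That group was WT flesh for 159 genes, MT skin for 119, WT skin for 58 and MT flesh for 20. Set against all tested genes close to silent in that group alone, these are 16.3%, 6.42%, 6.84% and 2.88%. With every library thinned to 8.51 M counts the numbers were 151, 63, 43 and 19, or 17.7%, 7.51%, 6.75% and 4.05% of such tested genes. The number for MT skin, the shallowest group, was reduced most. Its tested genes also fell, from 1854 to 839, and its share did not fall. Levels in the other groups were modest, and 5 of the 159 genes close to silent in WT flesh stood at 10 CPM or more in each of the other 3 groups.

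Genes dominant in 1 tissue were followed as a measure of the other tissue in each library. In all, 140 genes stood at 100 CPM or more in skin of both lines and at or under 1% of that level in flesh, averaged over the lines. Their summed level was 55.8, 58.7 and 66.7 CPM in the WT flesh libraries and 134, 133 and 130 CPM in MT flesh, higher in all MT libraries. Flesh as a share of skin was larger in MT for 71 of the 140 genes, with medians of 0.0125% in WT and 0.037% in MT. In flesh, 3 counts equal up to 0.152 CPM in a WT library and 0.178 CPM in an MT library. Shares this small can therefore rest on few or no counts. By the genotype test 29 genes rose and 4 fell in MT flesh, a test that 4.96% of all tested genes passed. The converse set, 20 genes dominant in flesh, summed to 49.5, 45.9 and 46.2 CPM in WT skin and to 106, 90.5 and 83.6 CPM in MT skin. Skin as a share of flesh was larger in MT for 15 of the 20 genes, with medians of 0.447% in WT and 0.838% in MT. By the genotype test 9 genes rose and 0 fell in MT skin, a test that 6.85% of all tested genes passed. The interaction test passed for 32 of the 140 genes (22.9%) and for 9 of the 20 (45%), against 4.55% of all tested genes. By mean log2 CPM over the 12 libraries, 4.75% of tested genes passed from 2 to 4 and 13.4% from 4 to 6. At 6 or more 32.5% passed. The mean of a dominant gene includes the tissue where it is nearly absent, and no class was matched to these sets. The limit of 1% was set on both lines, so a change between them also decided which genes entered. Whether unequal separation of skin from flesh had a part in the interaction was not tested.

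The share of genes that passed rose with expression level. Among genes with a mean log2 CPM under 0, 209 of 21772 passed (0.96%), with a median absolute interaction of 5.93. Between 2 and 4 the share was 4.75%, with a median of 1.53. At 6 and over, 631 of 1940 genes passed (32.5%), with a median of 0.63. Which sizes of difference could pass at each level was not tested. The excess of lower over higher interactions was present at each level, from 81.8% lower under 0 to 60.1% between 4 and 6.

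**Figure D4:**
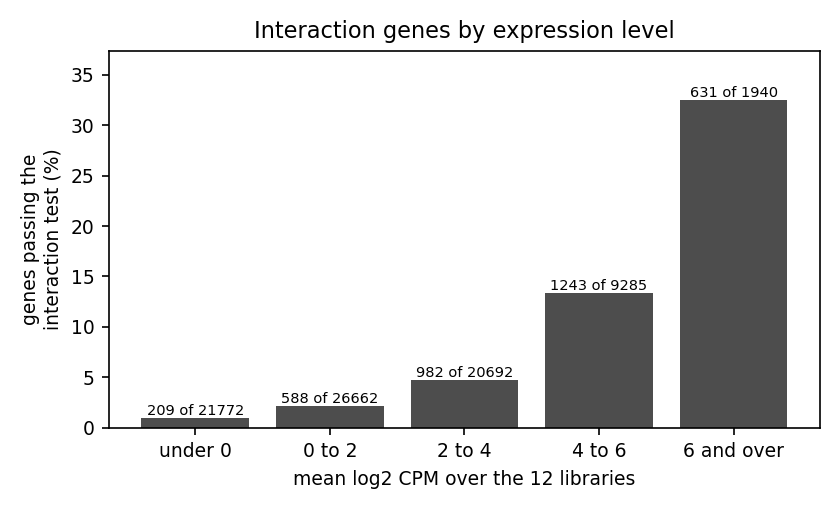
Share of tested genes that passed the interaction test (bars, %) in 5 classes of mean log2 CPM over the 12 libraries, with the number passed and tested above each bar. The share rises from 0.96% in the lowest class to 32.5% in the highest.

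The identifiers carry a number from 01 to 15 and a letter from A to F, read here as the chromosome and the haplotype of this hexaploid; the table has no coordinates, so this reading is an assumption. Interaction genes were spread over all 15 numbers, from 3.44% of tested genes numbered 14 to 6.03% of those numbered 01, around the 4.55% of all genes. A mean log2 CPM of 6 or more was found in 1.6% of genes numbered 14 and in 2.9% of those numbered 01, and the part of expression level in this difference was not tested. Genes numbered 12 passed the genotype test most often of the 15 numbers, 12.7% in skin and 9.01% in flesh. They passed the interaction test in 4.19% of cases, near the share of all genes. Number 14 also differed in direction, with 76 genes higher and 72 lower, where each of the other 14 numbers had between 63.2% and 72.5% lower. Over the 6 letters the share passed ran from 4.43% to 4.72%. Copies on several haplotypes can be nearly identical, and how reads were divided among them is uncertain for any single identifier.

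**Figure D5:**
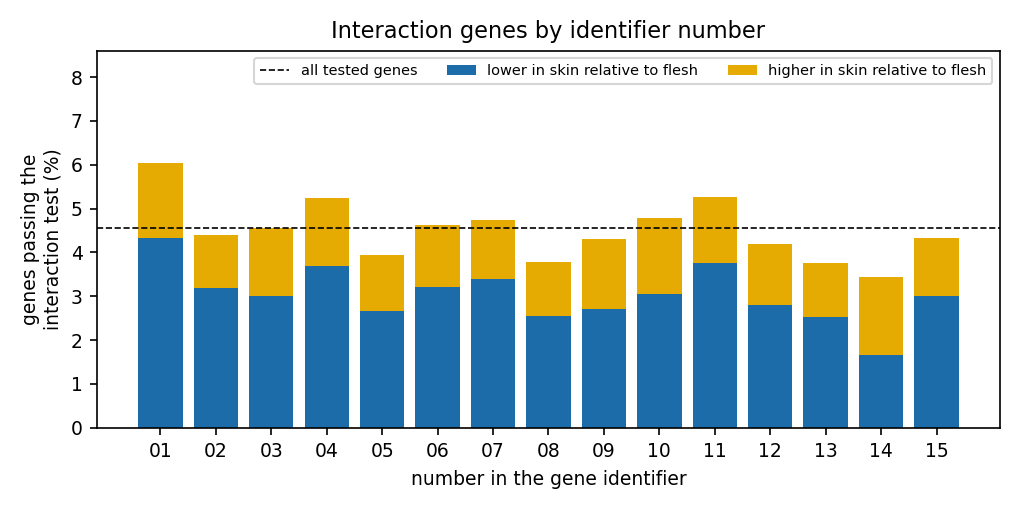
Share of tested genes passing the interaction test (%), by the number in the gene identifier, divided into genes lower and higher in skin relative to flesh; the dashed line marks all tested genes, at 4.55%. Number 01 is highest at 6.03% and number 14 lowest at 3.44%, and number 12 lies near the line at 4.19%.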

How the data were processed

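The authors deposited unnormalised counts for 225111 genes in 12 libraries, beside a length for each gene. Per the labels' protocols, rRNA was removed and oligo(dT) beads were used before library construction. The submitters' processing notes list HISAT2 2.0.5, featureCounts and DESeq2 1.40.2 without saying what each did. For genome build, annotation, strand and multi-mapped reads, the setting was not given in the sources used here.

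The deposited counts were analysed with edgeR 4.0.16 in R 4.3.3. filterByExpr (minimum count 10) kept 80351 genes, TMM scaled the libraries, and the 4 groups were fitted together. The interaction, both genotype contrasts and both tissue contrasts were tested by quasi-likelihood, with p-values adjusted by Benjamini-Hochberg and a threshold of 0.05. The script was tested on simulated data. SE is the absolute log2 difference divided by the square root of the F statistic, an approximation. Log2 CPM used a prior count of 2.

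Named genes passed the interaction test, had a mean of at least 1 CPM in each group and, where the genotype test passed, no overlap of the genotypes. The 2 raised and 2 lowered genes with the largest interaction were taken from each of 3 kinds (flesh alone, skin alone, opposed). Members and lists were chosen with earlier results of these data known. None of 175826 entries of a table from another assembly carried these identifiers (0 matched), so lists of named pathways were not used here. Tissue-dominant genes, running-number classes, near-silent groups and level classes were chosen after the data were seen. Replicates differed by more than sampling noise (index of dispersion 6.81 to 9.46, where 1 is sampling noise). Alternatives are given in the closing section, with limma 3.58.1 and DESeq2 1.42.0.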

Additional observations from a re-analysis of the deposited data

Results flagged for a closer look

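For each of the 12 named genes the effect of genotype differed between skin and flesh by the interaction test, which is how they were selected. The interaction on the log2 scale was -6.28 for Ibat.Brg_v3.12CG012560, -6.16 for Ibat.Brg_v3.07AG011200, 2.20 for Ibat.Brg_v3.12FG024710 and 2.07 for Ibat.Brg_v3.06EG023670. In these genes the genotype test passed in flesh alone. The interaction was 3.13 for Ibat.Brg_v3.04AG000420, 2.97 for Ibat.Brg_v3.05AG023240, -4.71 for Ibat.Brg_v3.14CG000790 and -4.54 for Ibat.Brg_v3.04EG029190, where the genotype test passed in skin alone. For the opposed genes the interaction was 2.57 for Ibat.Brg_v3.01DG013520, 2.43 for Ibat.Brg_v3.13DG022780, -5.19 for Ibat.Brg_v3.12FG026930 and -4.37 for Ibat.Brg_v3.06EG010380.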

How the results depend on the processing

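DESeq2 called 5855 interaction genes, among them 2393 changed in skin alone, 585 opposed, 1954 wider, 2296 narrower and 1605 turned. limma-voom called 930 genes in skin alone and 1064 in flesh alone. Without a filter on low counts 1860 genes were turned. The genotype test passed for 8419 genes in skin and 6030 in flesh with DESeq2 (5502 and 3985 with edgeR), for 4844 in skin and 6155 in flesh with limma-voom, and for 3583 in skin and 3747 in flesh without WT skin replicate 2. In the last 2 settings flesh thus exceeded skin, as flesh alone exceeded skin alone (1064 against 930, and 1032 against 1023). Interactions higher in skin numbered 2254 with DESeq2, 1770 without the filter, 764 without MT flesh replicate 1 and 767 without WT flesh replicate 2, against 1177. Genes with the larger difference in skin numbered 3219 with DESeq2, 1213 without MT flesh replicate 1 and 1215 without WT flesh replicate 3, against 1835. Leaving out single libraries gave 2696 to 3356 interaction genes, 869 to 1112 in flesh alone, 1023 to 1350 in skin alone, 229 to 278 opposed, 827 to 1114 wider, 1153 to 1325 narrower and 678 to 917 turned. Library totals alone gave 60.3% lower interactions against 67.8% with TMM.

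Replicate numbers recur in all groups, but the labels tie them to nothing, and deviations of same-numbered libraries correlated between -0.017 and 0.015. With the replicate block 2950 genes passed, and 5 of 12 libraries correlated best with their own number. The 12 named genes kept their direction in every alternative that gave a value. Lists of named pathways were not run.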

Other observations

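Along the identifiers, interaction genes were most frequent at the low end of number 01. In classes of 4000 running numbers with at least 100 tested genes, 116 in all, the first and second places went to number 01: 83 of 900 genes (9.22%) from 4000 to 7990 and 66 of 780 genes (8.46%) from 0 to 3990, against 4.55% of all tested genes. In the former, 63 of the 83 were lower in skin relative to flesh, 32 had changed in flesh alone and 28 in skin alone. The median log2 CPM of tested genes there was 1.45, against 1.34 for all tested genes. These classes were ranked after their values were seen.

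Interaction genes had a median length of 1699 bases against 1773 for all tested genes, and a median log2 CPM of 4.09 against 1.34.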
